A study of Homo sapiens with 8 samples.

Results

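The cadherin superfamily was described in MDA-MB-231, an established line of triple-negative breast cancer from a human donor, after 2 days of culture on a soft or on a stiff substrate. Members were the 85 genes, of 19775 genes on the arrays, whose platform symbol names a classical or other numbered cadherin (CDH), a desmoglein or desmocollin (DSG, DSC), a protocadherin (PCDH), a Fat or Dachsous protein (FAT, DCHS) or a CELSR protein. PCDH11Y was left out. Only probe sets with 1 gene symbol were used. A further 12 probe sets carried a family symbol beside other symbols. Genes read only by these, such as PCDH20, are thus not among the 85. Of the 85 members, 81 are protein-coding in RefSeq. The other 4 are PCDH10-DT, a long non-coding RNA next to PCDH10, and the transcribed pseudogenes PCDHB17P, PCDHB18P and PCDHGB8P. The members were read by 152 probe sets, and each gene was represented by its brightest probe set, judged by the mean of all 8 arrays. The 4 soft and the 4 stiff arrays each came from biological replicates lettered A to D. All groups were the same untreated line in the same serum-containing medium, so they differ by substrate alone as far as the labels say. The sources used here give no stiffness for either substrate. Levels are log2 values after RMA, a summary that corrects background and equalises the distributions of the arrays, so 1 unit is a 2-fold change.

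Cadherins are membrane proteins whose extracellular repeats bind calcium and, in most subfamilies, a cadherin on the neighbouring cell. Classical cadherins carry a cytoplasmic tail that binds catenins and through them the actin cytoskeleton, and desmosomal cadherins link instead to intermediate filaments. Fat, Dachsous and CELSR proteins are very large cadherins known for planar cell polarity and, in Drosophila, for input to the Hippo pathway, while clustered protocadherins are best known for giving neurons individual surface identities. MDA-MB-231 is known as a mesenchymal line that lacks E-cadherin, the product of CDH1.

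Cells on the soft substrate had 2 members higher and 1 lower than cells on the stiff substrate, and 82 members did not pass the threshold, an adjusted p under 0.05 in limma. PCDHGA4 was 1.82-fold higher on soft, CELSR1 was 1.25-fold higher on soft, and FAT3 was 2.05-fold lower on soft. The share called was 3.53% of the members, against 10.3% of all genes in either direction (4.39% higher and 5.93% lower). These counts depended on which probe sets entered the fit. With only probe sets above background, a level given in the next paragraph, 4 members were higher and 3 lower, and with only those above the median level 6 were higher and 3 lower. The members' share was then 28% (7 of 25) and 32.1% (9 of 28), against 27.2% and 24.7% of all genes, so that the members stood below all genes with every probe set tested and not with either filter. An unadjusted p under 0.05 was reached by 13 members. No share of all genes at this unadjusted level is given here. The count of 13 therefore cannot show whether the members changed more or less often than all genes. The median difference, soft minus stiff, was 0.06 on the log2 scale over the members and 0.01 over all genes. It was above 0 for 65.9% of the members and for 51.8% of all genes.

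Much of the family was near or below a background level in these cells, and how much depended on where that level was set. The level used here, 6.16, is the 95th percentile over 21 measured genes of other tissues, such as insulin and lens crystallin, that breast cells are taken not to use (the silent genes). Neither group mean exceeded it for 60 of the 85 members, whose means over the 8 arrays ran between 2.71 and 5.93, and none of these 60 passed the threshold. With the median of the silent genes as the level 55 members lay above it, and with their maximum of 7.59 only 10 did. The 25 members above it were FAT1, FAT3, FAT4, the CELSR genes 1 to 3, CDH11, CDH15, CDH18, CDH22, CDH24, DSG2, DSC2, PCDH1, PCDH7, PCDH9, PCDH12, PCDHB2, PCDHB3, PCDHB13, PCDHB14, PCDHB18P, PCDHGA4, PCDHGA8 and PCDHGB5. All 3 called genes were among these 25 (12%), against 16.5% called among all genes whose mean lay above background. Levels of different probe sets depend on their probes and are set here only against the background level, not against each other.

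**Figure D1:**
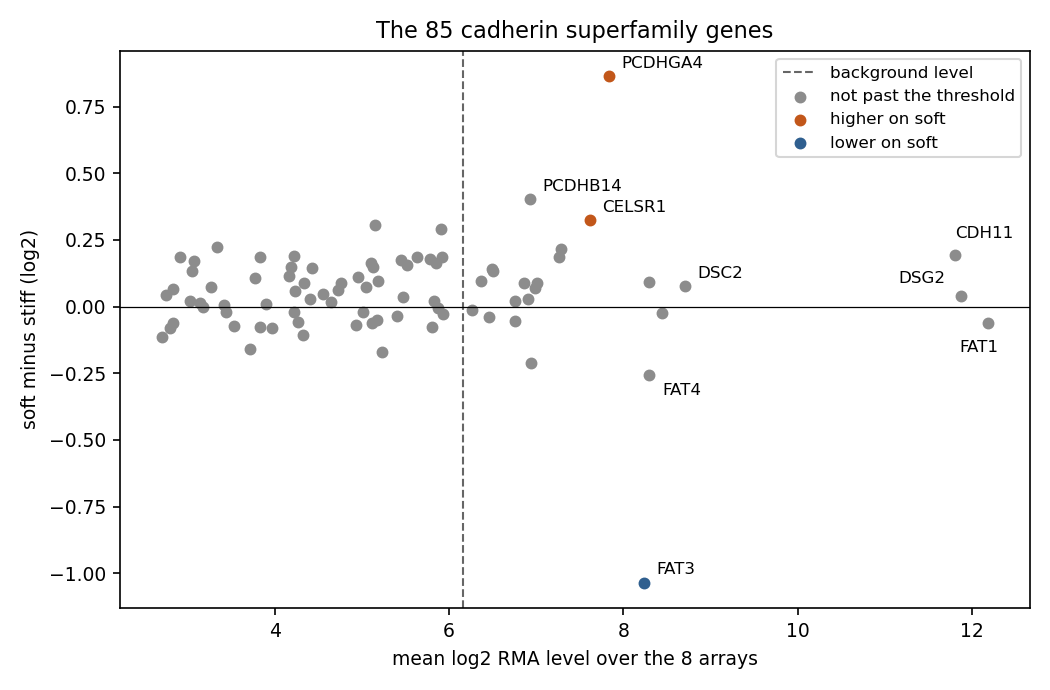
The 85 members, with the mean log2 RMA level over the 8 arrays on the horizontal axis and the soft minus stiff difference (log2) on the vertical axis; the dashed line is the background level of 6.16. FAT3 at -1.035 and PCDHGA4 at 0.865 stand apart from the other points, and no point left of the line is coloured as past the threshold.

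Fat and Dachsous proteins bind one another between cells. FAT3, an atypical cadherin studied mainly in neurons of the retina, had levels of 7.28, 7.79, 8.17 and 7.63 in soft arrays A to D, against 9.07, 9.16, 8.44 and 8.34 in stiff arrays A to D. Every soft array lay below every stiff array, and the groups were spread widely: the SD was 0.369 on soft and 0.422 on stiff. FAT3 averaged 7.72 on soft and 8.75 on stiff, a difference of -1.035 (SE 0.213, limma adjusted p = 0.0127). A further FAT3 probe set gave 7.14, 7.32, 7.56 and 6.99 on soft, against 8.71, 8.81, 7.88 and 7.78 on stiff. Both probe sets thus showed the stiff arrays A and B above C and D, and this further probe set differed by -1.04 (adjusted p = 0.0157). The third FAT3 probe set was at background, with 3.02 on soft and 3.10 on stiff (adjusted p = 0.621). Without stiff A and B the FAT3 difference was -0.67 and missed the threshold (adjusted p = 0.103), and without stiff C and D it was -1.40 (adjusted p = 0.00802).

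FAT1, a Fat cadherin that is mutated in several carcinomas, had 12.08, 12.25, 12.19 and 12.10 in soft arrays, against 12.30, 12.23, 12.12 and 12.21 in stiff arrays. The groups overlapped, and the 95% confidence interval of the difference ran from -0.21 to 0.09 (adjusted p = 0.659). FAT4, the human protein nearest to Drosophila Fat, had 7.97, 8.26, 8.30 and 8.15 on soft, against 8.38, 8.34, 8.54 and 8.44 on stiff. Its arrays did not overlap, yet its difference of -0.26 (SE 0.0823) did not pass the threshold (adjusted p = 0.0811). It passed with only probe sets above background (adjusted p = 0.0352) and with only those above the median level (0.0381). It also passed with limma's trended robust variance, which follows the level and gives less weight to outlying probe sets (0.0443). It did not pass without stiff A and B (-0.32, adjusted p = 0.13) or without stiff C and D (-0.19, adjusted p = 0.373). FAT2 and the Dachsous genes DCHS1 and DCHS2 were at background. FJX1, a Golgi kinase related to the Drosophila kinase that modifies Fat and Dachsous, was not a member but fell on soft, by 0.54 (adjusted p = 0.00244).

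**Figure D2:**
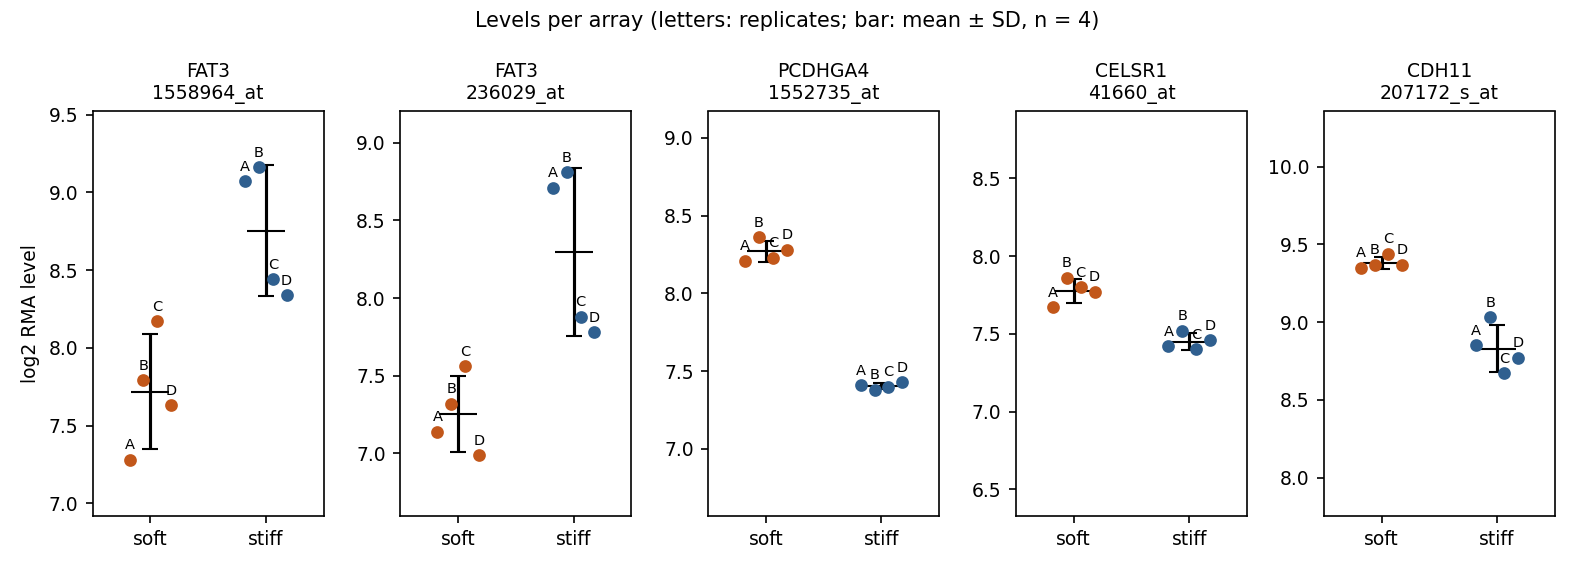
Log2 RMA level in each array for both FAT3 probe sets above background, PCDHGA4, CELSR1 and a CDH11 probe set, with soft arrays left and stiff arrays right; letters are replicates and bars are the mean ± SD of 4 arrays. Every panel spans the same range of 2.6 log2 units, so the tight PCDHGA4 groups, with SD 0.0668 on soft and 0.0208 on stiff, can be set against the wide FAT3 groups.

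CELSR proteins are cadherins with a receptor's membrane-spanning part and act in planar cell polarity. CELSR1 had 7.67, 7.86, 7.80 and 7.77 in soft arrays, against 7.42, 7.52, 7.40 and 7.46 in stiff arrays. All soft arrays were above all stiff arrays, and CELSR1 rose by 0.325 (SE 0.0636, adjusted p = 0.0104). Its other 2 probe sets were at background, with differences of 0.10 (adjusted p = 0.7) and 0.08 (adjusted p = 0.708). The mean of the 3 probe sets differed by 0.17 and missed the threshold (adjusted p = 0.151), as did CELSR1 without stiff A and B (0.345, adjusted p = 0.0531) and without stiff C and D (0.305, adjusted p = 0.0772).

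CELSR3 had 7.45, 7.47, 7.19 and 7.45 on soft, against 6.99, 6.96, 7.40 and 7.35 on stiff. Stiff A and B lay below all other arrays, while stiff C and D overlapped with soft. The difference of 0.21 had a confidence interval from -0.03 to 0.46 (limma adjusted p = 0.286). It was 0.015 without stiff A and B (adjusted p = 0.956). Without stiff C and D it was 0.415 and passed the threshold (adjusted p = 0.0469). A further CELSR3 probe set, above background, rose by 0.27 (adjusted p = 0.0401). CELSR2 overlapped between the groups, with 6.73 ± 0.125 on soft and 6.78 ± 0.0727 on stiff (SD, n = 4 each, limma adjusted p = 0.744).

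Protocadherins of the alpha, beta and gamma clusters lie in tandem on chromosome 5, and each variable exon of the alpha and gamma clusters has a promoter of its own. The 36 members in the clusters were 6 of alpha, 17 of beta and 13 of gamma. PCDHGA4 was the 1 that passed the threshold. Its probe set had 8.21, 8.36, 8.23 and 8.28 in soft arrays, against 7.41, 7.38, 7.40 and 7.43 in stiff arrays. The groups were far apart relative to their spread, and PCDHGA4 rose by 0.865 (SE 0.059, adjusted p = 6.11e-05). It kept its call without stiff A and B (0.855, adjusted p = 0.00252) and without stiff C and D (0.875, adjusted p = 0.0014). PCDHGA4 had 1 probe set, so no other probe set could be set beside it.

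Promoters of clustered protocadherins are known for a conserved element with the core letters CGCT. The promoter windows, 250 bases before to 50 bases after the gene start, are shown for PCDHGA4, which rose, for PCDHGA3, its nearest measured neighbour upstream in the gamma cluster, and for PCDHB14, the beta member with the largest difference. They were taken from RefSeq (GRCh38.p14, plus strand), at chr5:141354771-141355070 for PCDHGA4, chr5:141343579-141343878 for PCDHGA3 and chr5:141223093-141223392 for PCDHB14. Capitals mark each CGCT, searched on both strands (CGCT or AGCG).
PCDHGA4: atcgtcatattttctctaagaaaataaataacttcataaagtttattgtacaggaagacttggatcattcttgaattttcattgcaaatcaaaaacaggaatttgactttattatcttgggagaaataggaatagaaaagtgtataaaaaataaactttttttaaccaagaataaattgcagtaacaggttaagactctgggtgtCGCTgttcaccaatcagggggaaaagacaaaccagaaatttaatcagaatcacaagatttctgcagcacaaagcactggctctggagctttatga
PCDHGA3: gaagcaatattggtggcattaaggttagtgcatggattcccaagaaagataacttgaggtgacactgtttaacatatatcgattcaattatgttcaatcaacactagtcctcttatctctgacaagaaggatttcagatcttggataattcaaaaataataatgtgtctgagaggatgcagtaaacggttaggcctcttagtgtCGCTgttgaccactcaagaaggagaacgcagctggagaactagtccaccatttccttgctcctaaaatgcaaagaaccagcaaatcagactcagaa
PCDHB14: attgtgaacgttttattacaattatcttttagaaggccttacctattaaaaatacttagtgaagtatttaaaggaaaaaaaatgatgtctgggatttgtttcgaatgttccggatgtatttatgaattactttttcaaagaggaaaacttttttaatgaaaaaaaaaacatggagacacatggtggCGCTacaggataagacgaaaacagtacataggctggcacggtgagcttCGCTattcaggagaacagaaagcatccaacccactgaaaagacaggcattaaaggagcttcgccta

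The PCDHGA4 and PCDHGA3 windows each held 1 copy, 45 and 46 bases before the start, inside the longest run of letters the windows share, gtgtCGCTgtt. PCDHB14 held 2 copies, the nearer 16 bases before its start. A window was at hand for 30 of the 36 clustered members, and 29 of the 30 (96.7%) held CGCT, against 69.4% of the 27305 promoters in the table, so a match is common at this length. PCDHGA3, whose window holds the shared run too, was at background, with 5.53 ± 0.139 on soft and 5.36 ± 0.101 on stiff (SD, n = 4 each, limma adjusted p = 0.234). Because nearly all clustered windows held the letters searched, their presence could not separate members that passed from those that did not. The part of the element in these differences was not tested.

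Of the other gamma members, PCDHGA8 had 7.41, 7.03, 6.96 and 6.66 in soft arrays, which spread around the 6.91, 6.87, 7.05 and 6.95 of the stiff arrays (adjusted p = 0.807). PCDHGB5 differed by -0.01 (confidence interval -0.25 to 0.22). PCDHGA10 was at background, and its arrays did not overlap: 5.57, 5.28, 5.20 and 5.15 on soft, against 5.08, 5.03, 4.91 and 4.95 on stiff (difference 0.31, adjusted p = 0.0602). None of the 12 gamma members other than PCDHGA4 passed the threshold.

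In the beta cluster, none of the 17 members passed in the main fit of all probe sets and arrays. Only 5 of the 17 were above background, and their differences ran from -0.03 to 0.40. A positive difference was found for 15 of the 17, with a median of 0.10, and for 51.8% of all genes. PCDHB14 had 7.10, 7.35, 6.93 and 7.12 on soft, against 6.87, 6.98, 6.61 and 6.43 on stiff. Soft C lay below stiff B, and the difference of 0.40 (SE 0.123) missed the threshold (adjusted p = 0.0671). It passed with only probe sets above background (adjusted p = 0.0359), with only those above the median level (0.0381) and with the trended robust variance (0.0354). With the replicate letters as a block it also passed (0.0314). Leaving out soft C (0.0494) or stiff B (0.046), the arrays that overlapped, gave a call. Without any other single array the adjusted p ran from 0.0733 to 0.16. The difference was 0.605 without stiff A and B (adjusted p = 0.0279) and 0.20 without stiff C and D (adjusted p = 0.403). PCDHB2 had 8.42, 8.46, 8.28 and 8.56 on soft, against 8.48, 8.54, 8.33 and 8.47 on stiff, which overlapped throughout (difference -0.03, confidence interval -0.19 to 0.14, adjusted p = 0.888). A probe set annotated to more than 1 beta gene, and so to no single member, rose by 0.63 (adjusted p = 0.00246), with 6.78, 6.92, 6.53 and 6.63 on soft, against 6.23, 6.07, 6.08 and 5.96 on stiff. The exons of these genes are alike in sequence, and 18 of the 36 clustered members were read by probe sets marked as shared between transcripts, so the transcripts behind small differences among beta and gamma members cannot be told apart. The 6 alpha members were at background, and their differences ran from -0.105 to -0.005.

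**Figure D3:**
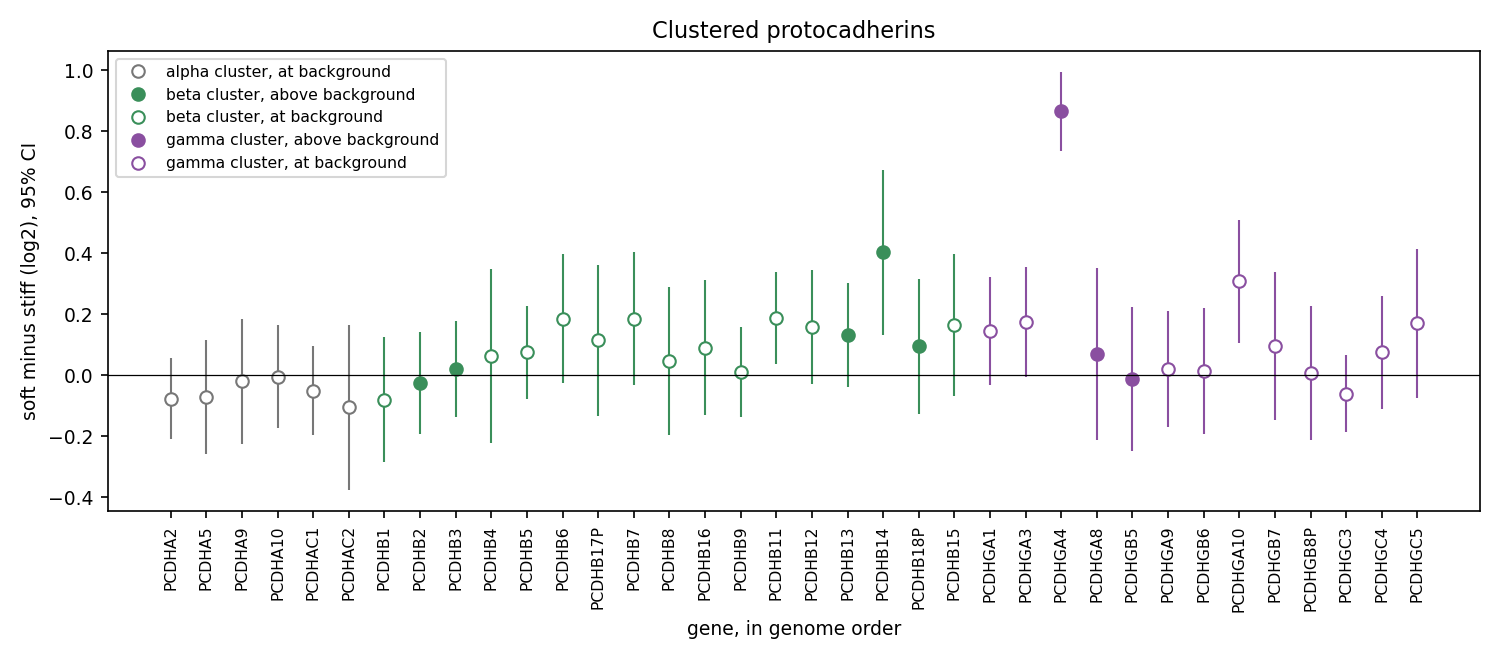
Soft minus stiff difference (log2) with its 95% confidence interval for the 36 clustered protocadherins in genome order, alpha left, then beta, then gamma; filled points are above background. PCDHGA4 at 0.865 lies above all others, and next to it PCDHGA3 is at 0.175 and PCDHGA8 at 0.07.

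Of 11 protocadherins outside the clusters none passed the threshold, and 4 were above background. PCDH7, an adhesion protein linked to metastasis, had 8.22, 8.46, 8.30 and 8.37 on soft, against 8.42, 8.56, 7.94 and 8.06 on stiff. The stiff arrays straddled the soft ones, and the difference was 0.09 (confidence interval -0.18 to 0.37, adjusted p = 0.729). A further PCDH7 probe set above background differed by -0.28 (adjusted p = 0.284), so the probe sets of this gene did not share a direction. PCDH9 differed by 0.19 (adjusted p = 0.203), and PCDH1 and PCDH12 each by 0.09 (adjusted p = 0.484 and 0.517).

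The classical type I cadherins of epithelia and mesenchyme were at background on both substrates. CDH1, which encodes E-cadherin, had 4.17, 4.24, 4.25 and 4.28 on soft, against 4.46, 4.23, 4.21 and 4.27 on stiff (adjusted p = 0.692). CDH2, which encodes N-cadherin, averaged 4.998 ± 0.225 on soft and 5.02 ± 0.133 on stiff (SD, n = 4 each, limma adjusted p = 0.941). CDH3, which encodes P-cadherin, averaged 5.39 ± 0.184 on soft and 5.42 ± 0.0436 on stiff (SD, n = 4 each, limma adjusted p = 0.863). None of the 3 was above background in either group at these probe sets. A dimmer CDH1 probe set, with all 8 values under the background level, fell by 0.45 on soft (adjusted p = 0.0137), and CDH1 also passed with the mean of its probe sets (difference -0.25, adjusted p = 0.0192). CDH15, a cadherin of skeletal muscle, lay slightly above background, at 6.56 on soft and 6.42 on stiff (adjusted p = 0.279).

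Of 13 type II cadherins 4 were above background and none passed in the main fit of all probe sets and arrays. CDH11, a cadherin of mesenchymal cells, had 11.90, 11.96, 11.87 and 11.89 on soft, against 11.81, 11.80, 11.57 and 11.66 on stiff. Every soft array lay above every stiff array, but the difference of 0.20 (SE 0.0695) missed the threshold (adjusted p = 0.112). It passed with only probe sets above background (adjusted p = 0.0429) and with only those above the median level (0.0471). It also passed with the trended robust variance (0.0274) and with the mean of the gene's probe sets (0.041). It did not pass without stiff A and B (0.29, adjusted p = 0.0701) or without stiff C and D (0.10, adjusted p = 0.533). Without probe sets marked as shared, a dimmer probe set stood for CDH11 (0.05, adjusted p = 0.802). A further CDH11 probe set had 9.35, 9.37, 9.44 and 9.37 on soft, against 8.85, 9.03, 8.67 and 8.77 on stiff, and rose by 0.55 (SE 0.0785, adjusted p = 0.00215). The remaining 2 CDH11 probe sets were also above background. Their differences were 0.05 (adjusted p = 0.778) and 0.15 (adjusted p = 0.259). All 4 differences of CDH11 were positive, while their size depended on the probe set. CDH24 had 6.91, 6.75, 6.91 and 6.74 on soft, against 7.16, 6.98, 7.09 and 6.93 on stiff. Its arrays did not overlap, and its difference of -0.21 missed the threshold (adjusted p = 0.106). It passed with only probe sets above background (adjusted p = 0.043) and with only those above the median level (0.0468). It also passed with the mean of the gene's probe sets (0.0369). It did not pass without stiff A and B (-0.18, adjusted p = 0.312) or without stiff C and D (-0.24, adjusted p = 0.194). Over the family, 9 of the 85 members had soft and stiff arrays with no overlap, 6 of them not past the threshold; over all genes this share was 19.9%. Any probe set past the threshold was found for 7 of the 85 members, CDH1 and DSC2 among them at dim probe sets, against 16% of all genes.

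Of 7 desmosomal cadherins, DSG2 and DSC2 were above background, and the keratinocyte forms DSG1, DSG3, DSG4, DSC1 and DSC3 were not. DSG2, the desmoglein found in most tissues with desmosomes, had 11.82, 11.89, 11.93 and 11.90 on soft, against 11.87, 11.84, 11.82 and 11.85 on stiff. DSC2, the matching desmocollin, had 8.69, 8.82, 8.76 and 8.72 on soft, against 8.62, 8.67, 8.65 and 8.74 on stiff. At these probe sets both genes overlapped between the groups. The confidence intervals ran from -0.08 to 0.16 for DSG2 (adjusted p = 0.74) and from -0.05 to 0.21 for DSC2 (adjusted p = 0.502). A further DSC2 probe set above background differed by 0.185 (adjusted p = 0.191). One with both group means under the background level rose by 0.355 (adjusted p = 0.0339).

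**Figure D4:**
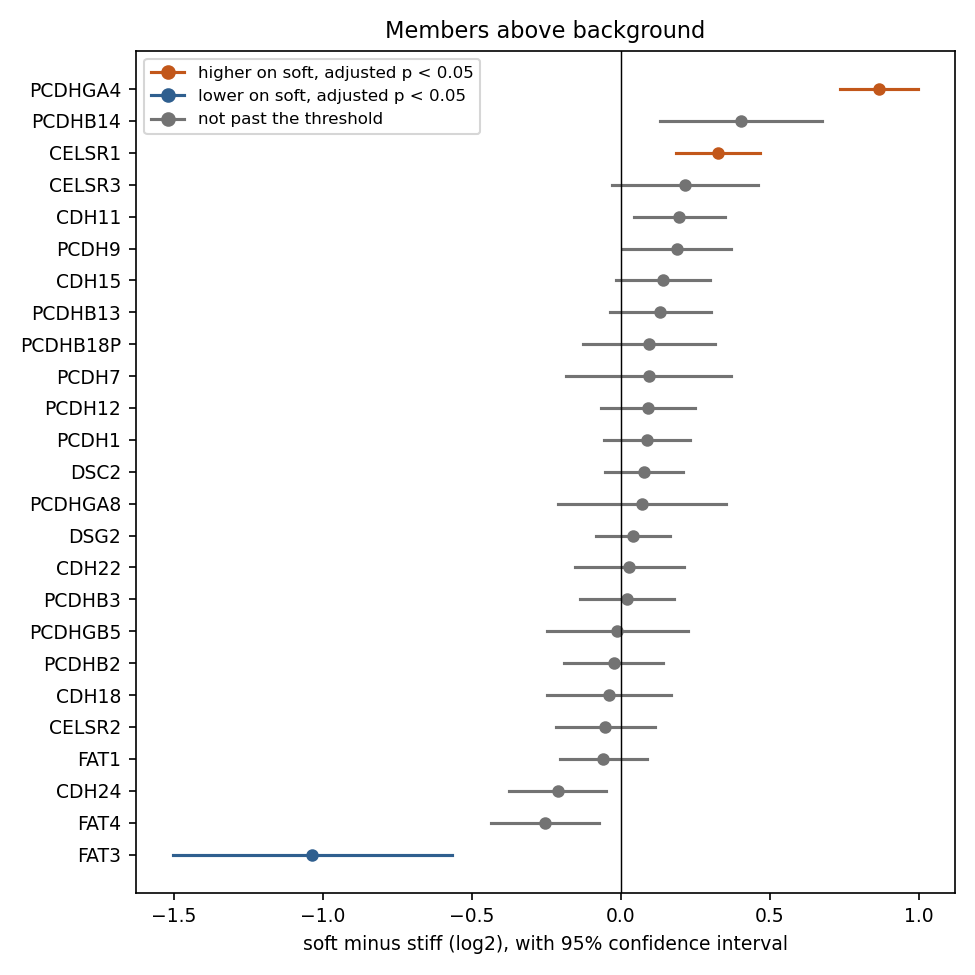
Soft minus stiff difference (log2, point) with its unadjusted 95% confidence interval (line) for the 25 members above background, sorted by difference. PCDHGA4 (0.865) and CELSR1 (0.325) are coloured as higher and FAT3 (-1.035) as lower; PCDHB14, CDH11, PCDH9, CDH24 and FAT4 have intervals that leave out 0 but did not pass after adjustment.

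Proteins that work with cadherins were taken as 6 lists of 47 genes, of which 45 were measured, 10 of them at background. In all 7 were higher and 6 lower on soft, 28.9% against 10.3% of all genes. Most partner genes lay above background, and among all genes whose mean lay above background the share was 16.5%. The partner share of 28.9% still counts the 10 genes at background, none of which passed, so it has another base than the 16.5%. The median difference was 0.05 against 0.01 over all genes. The count of higher genes was 4 without soft B, 3 without soft D, 4 without stiff C and 3 without stiff D. Of all genes 6.85%, 6.36%, 6.69% and 6.83% were called in these fits, in either direction. Of 10 measured catenins and linkers 3 rose: the catenin CTNNA1, which couples cadherins to actin, by 0.33 (adjusted p = 0.00575), plakoglobin (JUP), which serves both junction types, by 0.47 (adjusted p = 0.00241), and the beta-catenin inhibitor CTNNBIP1 by 0.43 (adjusted p = 0.041). CTNNAL1, related to alpha-catenins, fell by 0.28 (adjusted p = 0.0234). Beta-catenin itself (CTNNB1) differed by -0.01 (adjusted p = 0.945).

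Of 7 desmosomal plaque genes PKP3 rose by 0.33 (adjusted p = 0.0344) and periplakin (PPL) by 0.45 (adjusted p = 0.0213), while PKP2 fell by 0.50 (adjusted p = 0.0349) and PKP4 by 0.48 (adjusted p = 0.00266). Plakophilins, which gather desmosomal cadherins in the plaque, thus changed in both directions while DSG2 and DSC2 did not pass at their brightest probe sets. Of 11 Fat/Dachsous and planar polarity partners the core polarity genes VANGL1 and PRICKLE2 rose by 0.30 (adjusted p = 0.0181) and 0.34 (adjusted p = 0.0129). The scaffold SCRIB fell by 0.34 (adjusted p = 0.0152), as did FJX1, given above. None of 5 nectin and afadin genes and none of 6 measured genes of cadherin shedding and processing passed. Of 6 repressors of cadherin genes SNAI2, which represses CDH1 in epithelial cells, fell by 0.51 (adjusted p = 0.0028); CDH1 stayed at background in both groups.

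The pattern over single arrays differed among the members above background. Stiff A and B lay above stiff C and D by 0.73 for FAT3, 0.49 for PCDH7, 0.41 for PCDHB14 and 0.19 for CDH11. They lay below stiff C and D by 0.40 for CELSR3. For PCDHGA4 this gap was -0.02 and for CELSR1 0.04. These gaps within the stiff group were larger than the soft minus stiff difference for PCDH7 and CELSR3, and about the size of it for PCDHB14 and CDH11.

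**Figure D5:**
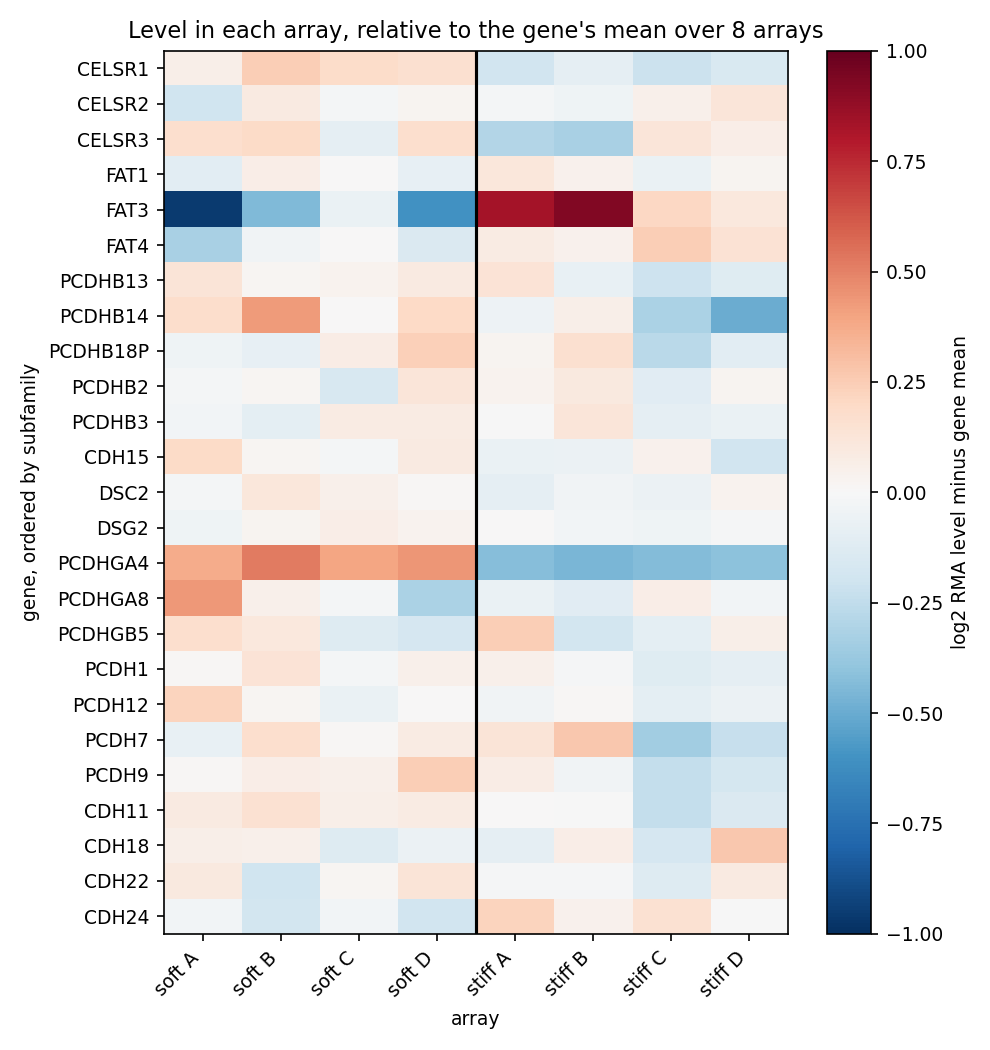
Level in each array relative to the gene's mean over the 8 arrays (log2) for the 25 members above background, soft arrays left of the line and stiff arrays right of it. PCDHGA4 is uniform within each group, whereas FAT3 is highest in stiff A and B and lowest in soft A.

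Arrays correlated at 0.9932 to 0.9982, no arrays were identical, and the second principal component (16.4% of the variance) set the stiff arrays A and B apart from the stiff arrays C and D. The line's mesenchymal markers VIM, CD44 and AXL were far above background in both groups, AXL lower on soft by 0.23 (adjusted p = 0.0318), PGR was at background and ESR1 near it (6.43 on soft and 6.38 on stiff). ERBB2, the third gene whose receptor defines a triple-negative tumour, was above background, at 8.01 on soft and 7.96 on stiff (adjusted p = 0.704). Of 12 luminal epithelial markers 4 rose on soft (TFF1, AGR2, KRT19 and CLDN7) and none fell; the mean level of the 12 ran from 8.89 to 8.97 on soft and from 8.60 to 8.74 on stiff, with FOXA1 and PGR at background. Of 8 fibroblast markers none passed and 6 were at background, and of 6 endothelial markers PECAM1 rose by 0.49 and 4 were at background. The part of these markers in the results was not tested. In bulk RNA, fewer cells with a transcript and less of it per cell cannot be told apart.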

How the data were processed

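The deposited values are log2 levels, 1 per probe set and array, that the authors made with RMA, per the submitters' processing notes; the log2 scale was read from the values. No RMA software or version is stated in those notes. RMA takes out any overall shift between arrays and shrinks differences at low signal. Of 54675 probe sets, 62 control probe sets were left out and 54613 tested. The platform annotation gave 1 symbol for 41091, several for 1801 and none for 11721. Soft and stiff were compared with limma 3.58.1 under R 4.3.3 (a linear model per probe set with eBayes, no trend, two-sided, Benjamini-Hochberg adjustment over all 54613 probe sets). The procedure was tested on simulated data. The labels do not say how the biological replicates were separated, so p-values reflect only the scatter of these 8 samples, and 4 arrays per group limit the precision.

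Members, lists and tests were chosen with earlier results of these data known. Of 24 genes listed as silent, 21 were measured. The text names every member past the threshold or above background, with values per array for the former and for the 5 with the highest means (FAT1, DSG2, CDH11, DSC2 and PCDHB2), CDH1, CDH2 and CDH3, and list genes past the threshold; other members with values were chosen after these were seen. RefSeq promoter windows matched 63 of the 85 members; a planned description of protein sequences was not made. Alternatives were a replicate block, other scalings, filters, variance models, thresholds and probe set choices, and leaving out arrays. The shift of the median difference of all probe sets under the other scalings was at most 0.02.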

Additional observations from a re-analysis of the deposited data

Results flagged for a closer look

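Among 56 groups of 4 arrays (28 members, each on soft and on stiff), 2 held 1 array far from the others, where chance flags about 1 in 20. For CELSR3 on soft, array C at 7.19 lay below 7.45, 7.47 and 7.45, and the gap took 0.929 of the range. For CDH3 on stiff, array A at 5.49 lay above 5.40, 5.41 and 5.40, a gap of 0.889 of the range; this gene is at background.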

How the results depend on the processing

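PCDHGA4 kept its call in all 21 alternatives other than the fits without a pair of stiff arrays (0.835 to 0.885), FAT3 in 20 of 21 (-1.19 to -0.72) and CELSR1 in 19 of 21 (0.17 to 0.36). At a threshold of 0.01 FAT3 (-1.035, adjusted p = 0.0127) and CELSR1 were no longer called, and CELSR1 also not with the mean of its probe sets. In the alternatives added after seeing the data, FAT3 was at -0.6725 without stiff A and B. Leaving out 1 array at a time gave -1.19 to -0.89 for FAT3 (adjusted p at most 0.0393). In these fits 2 to 3 members were higher and 1 lower, 3 to 6 partner genes higher and 4 to 6 lower. In each, 25 members were above background. The members' share was 4.71% without stiff B, against 5.53% of all genes, and 4.71% without soft C, against 10.3%. In the other fits without 1 array it was 3.53%, against 6.36% to 7.07% of all genes. Deviations of same-lettered arrays A to D correlated at 0.12, -0.12, 0.05 and -0.04, and only array A correlated best with its own letter. With 4 arrays per group these values cannot settle whether the letters pair the samples, and the labels do not say. With the replicate block 4 members were higher, PCDHB14 and PCDHGA10 added, and FAT3 stayed lower. The members' share was then 5.88%, against 7.34% of all genes.

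The number of members called depended on the filter and the variance model, with 4 higher and 3 lower above background and 6 and 3 above the median level. It was 4 and 2 with the trended robust variance, 1 and 0 at a threshold of 0.01, and 5 and 2 at 0.10. The share of all genes called moved too. Members stood at 7.06% against 15% of all genes with the trended robust variance. Their share was 1.18% against 3.05% at 0.01, and 8.24% against 15.4% at 0.10. Both filters added FAT4, CDH11, CDH24 and PCDHB14 to the 3 called members, and the filter at the median level also CDH26 and PCDHB11. The trended robust variance added FAT4, CDH11 and PCDHB14. With the mean of all probe sets 3 were lower, CDH1 and CDH24 added, and CDH11 and PCDHGA10 were higher. The members' share was then 7.06%, against 11.5% of all genes. Without stiff A and B 0 were lower. Partner genes higher on soft numbered 11 with either filter and at 0.10, 2 at 0.01, 4 without shared probe sets and 2 without stiff C and D. Those lower numbered 3 at 0.01, without stiff A and B and without stiff C and D. Calls over all genes shifted as well. Their share in either direction was 8.52% without shared probe sets, 4.23% without stiff A and B and 5.58% without stiff C and D. The 25 members above background became 55 at the median of the silent genes and 10 at their maximum of 7.59. Dim probe sets limit what can be seen.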

Other observations

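Some members had a probe set past the threshold that was not the one with the highest mean; these were chosen after their values were seen. A second CDH1 probe set fell by 0.45 on soft (3.98, 4.21, 3.87 and 3.82 on soft, against 4.38, 4.59, 4.4 and 4.31 on stiff; limma adjusted p = 0.0137), and all 8 values lay under the background level of 6.16. A DSC2 probe set rose by 0.355 (limma adjusted p = 0.0339), with means of 5.77 on soft and 5.42 on stiff, also under that level.

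PCDH18, a protocadherin at background, had 6.06, 5.92, 6.0 and 5.77 on soft, against 6.20, 6.07, 5.33 and 5.49 on stiff, so that stiff A and B lay above stiff C and D as they did for FAT3. Its difference of 0.165 did not pass the threshold (limma adjusted p = 0.635).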
